A study of Mus musculus with 8 samples.

Results

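Intraepithelial T cells were followed here through 10 genes in bulk RNA-seq of mouse small intestinal crypts and villi, in Ctrl and Gli1-PtgscKO mice. The genes were Ptprc, Cd3e, Cd3g, Cd8a, Gzma, Gzmb, Ccl5, Itgae, Cd7 and Nkg7. They were chosen by symbol and not by a cutoff on their values, but with earlier results of these data known. All 10 were listed in both deposited tables, among 13028 genes listed in either table. In Gli1-PtgscKO mice, Cre driven by Gli1 and switched on by tamoxifen removes Ptgs1 and Ptgs2, which encode the cyclooxygenases COX1 and COX2, from mesenchymal cells that express Gli1, so the deletion is not in the epithelium or in T cells. The label names the Ctrl genotype WT on a C57BL/6 background. A protocol note describes the comparison mice as Gli1-CreERT2 with a Rosa26-tdTomato reporter, whereas the study's text describes Ctrl mice as carrying floxed Ptgs1 and Ptgs2 without Cre, and this difference could not be settled. Tamoxifen was given at 100 mg/kg for 5 days, with collection 1 month later, and the age of the mice is not given in the sources used here. Each genotype and tissue had 2 labelled libraries, described in the methods as biological replicates, but both Ctrl villus columns hold the same values and enter here as a single library, which left 7 distinct libraries.

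Intraepithelial lymphocytes are T cells that lie between the epithelial cells of the gut lining, mostly along the villi. Many carry CD8 and are poised for killing, with stores of granzymes and rapid chemokine release. The integrin that pairs the Itgae product, CD103, with the Itgb7 product holds them to E-cadherin on the epithelial cell. In bulk tissue RNA, fewer cells of a type and less RNA per cell cannot be told apart, and several of these genes are not restricted to T cells, since Ptprc (CD45) is made by nearly all leukocytes and Gzma, Gzmb, Ccl5 and Nkg7 also by NK cells.

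Positions are those of GRCm38. The receptor genes Cd3e (chromosome 9, 44998740 to 45009627) and Cd3g (chromosome 9, 44969572 to 44980431) are neighbours, and the coreceptor gene Cd8a lies on chromosome 6 from 71373427 to 71379173. The killing genes are Gzma (chromosome 13, 113093825 to 113100981), Gzmb (chromosome 14, 56258838 to 56262260) and Nkg7 (chromosome 7, 43437073 to 43438249). Chromosome 11 holds Ccl5 (83525778 to 83530518), Itgae (73090583 to 73147446) and Cd7 (121036747 to 121039418), and Ptprc lies on chromosome 1 from 138062861 to 138175708. In the annotation Itgae overlaps Haspin on the opposite strand, and Cd7 and Cd3e overlap antisense genes. The strand setting of the authors' counting is not given in the sources used here, so reads of these 3 genes could include reads of their partners. Ptprc overlaps A130071D04Rik, and Cd3e also overlaps Gm48720. Each is an annotated transcript on the member's own strand, whose reads no strand setting would separate.

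RefSeq promoters, from 250 bases before to 50 bases after the gene start on GRCm38.p6, were matched for 7 of the 10 members and not for Ccl5, Itgae and Cd7. They are shown for the 3 killing genes, Gzma, Gzmb and Nkg7, because these held the RUNX letters TGTGGT, searched on both strands. RUNX factors, among them Runx3, bind such letters and are known for their part in CD8 T cell differentiation. Each is written 5′ to 3′ along the gene's own strand, with TGTGGT or its reverse complement in capitals, and in Nkg7 also the ETS letters AGGAAG.
Gzma, chr13:113100932-113101231, minus strand: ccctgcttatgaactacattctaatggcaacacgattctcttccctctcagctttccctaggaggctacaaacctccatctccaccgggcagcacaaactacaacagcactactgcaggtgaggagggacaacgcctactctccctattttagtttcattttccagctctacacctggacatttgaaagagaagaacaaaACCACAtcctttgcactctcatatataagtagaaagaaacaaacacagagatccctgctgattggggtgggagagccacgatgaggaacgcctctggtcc
Gzmb, chr14:56262285-56262584, minus strand: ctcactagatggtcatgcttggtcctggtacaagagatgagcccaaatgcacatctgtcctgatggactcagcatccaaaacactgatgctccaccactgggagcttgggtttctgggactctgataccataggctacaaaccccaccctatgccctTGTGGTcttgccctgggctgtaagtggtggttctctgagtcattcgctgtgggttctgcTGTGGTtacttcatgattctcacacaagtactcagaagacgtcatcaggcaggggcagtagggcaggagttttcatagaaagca
Nkg7, chr7:43436888-43437187, plus strand: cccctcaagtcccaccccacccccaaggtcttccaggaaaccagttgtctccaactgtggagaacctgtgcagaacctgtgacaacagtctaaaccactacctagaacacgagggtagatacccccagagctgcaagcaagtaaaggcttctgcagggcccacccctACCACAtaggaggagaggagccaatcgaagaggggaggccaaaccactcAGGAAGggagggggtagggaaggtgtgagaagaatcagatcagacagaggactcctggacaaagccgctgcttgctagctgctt
Gzmb held the RUNX letters at 2 places and the other 2 promoters at 1 place each. Of all 32817 promoters in the table, 16.8% held TGTGGT and 35.4% held AGGAAG, which was also found for Cd3e and Ptprc, and no match of one motif overlapped a match of the other. These are matches of letters, not sites of binding.

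Values are normalized counts, the reads of a gene divided by a size factor of its library, as the authors deposited them. There were 11554 genes in the crypt table and 12701 genes in that of the villi, with 16853017 to 21121714 reads on listed genes in crypt libraries and 13477600 to 15751024 in villus libraries. The smallest mean of a listed gene was 48.4 normalized counts in crypts and 8.82 in villi, so weak genes are not in the crypt table. Ptgs1, one of the deleted genes, had 365 and 164 normalized counts in Ctrl crypts and 178 and 199 in Gli1-PtgscKO crypts, which overlap, and 90.4 in Ctrl villi against 50.5 and 92.7 in Gli1-PtgscKO villi. Neither Ptgs2 nor Gli1 has a row in the tables, so the deletion could not be checked in these epithelial preparations. Markers fitted the tissue labels, as 10 enterocyte genes summed to 6167 to 8651 CPM in crypts and 29235 to 36662 in villi, and 8 stem cell genes to 4985 to 5666 in crypts and 182 to 428 in villi. CPM relates the reads of a gene to the summed reads on the 11227 genes listed in both tables.

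The T cell identity of the villus signal was checked with 20 further genes of the T cell receptor complex, its coreceptors and its signalling. Of these, 18 were listed in villi. The delta chain gene Trdc had 151 normalized counts in Ctrl villi and 144 and 166 in Gli1-PtgscKO villi, and the alpha chain gene Trac had 131 against 85.6 and 72.4. Trbc1 had 183 against 166 and 198, and Trbc2 had 268 against 153 and 200, although these beta chain genes are near-identical copies and the split of reads between them is uncertain. Genes of both the alpha-beta and the gamma-delta receptor were thus present in every villus library. Cd8b1, the partner of Cd8a in the CD8 alpha-beta coreceptor, had 68.3 against 35.2 and 51.2, and Cd4, the helper T cell coreceptor, 79.9 against 16.1 and 45.4, both far under the 843, 758 and 931 normalized counts of Cd8a in the same libraries. In crypts only Tcrg-C1, Tcrg-C2 and Lck of the 20 genes were listed, so there the T cell identity rests on these 3 genes and the members.

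Levels of the members were higher in villi than in crypts, with 1 exception. In 9 of the 10, every villus library lay above every crypt library in CPM, against 11.1% of all 11227 genes. No test was made, because the 2 tables were normalized separately. Summed over the 10 members, the level was 70.3 and 181 CPM in Ctrl crypts, 70.8 and 196 in Gli1-PtgscKO crypts, 1056 in Ctrl villi and 840 and 1006 in Gli1-PtgscKO villi. Villi thus stood above crypts in both genotypes, with a median ratio over the members of 7.45 in Ctrl and 7.69 in Gli1-PtgscKO, whereas the median over all genes in Ctrl was 0.44.

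Cd7, which encodes a surface glycoprotein of T and NK cells, had the largest Ctrl ratio of villus to crypt among the members, 21.8, with 0.92 and 5.03 CPM in Ctrl crypts and 64.8 in Ctrl villi. The lower Ctrl crypt value rests on 18 reads. Its Gli1-PtgscKO crypts had 4.36 and 7.91 CPM and its Gli1-PtgscKO villi 49.5 and 61.8, a ratio of 9.08. Gzma, a granzyme released from killer cell granules, had 22.0 and 55.7 CPM in Ctrl crypts and 492 in Ctrl villi, a ratio of 12.7. The tissues did not overlap for either gene. Ptprc was the exception, with 10.6 and 20.6 CPM in Ctrl crypts, 5.28 and 35.1 in Gli1-PtgscKO crypts, 11.9 in Ctrl villi and 50.7 and 55.7 in Gli1-PtgscKO villi. Its Ctrl villus value lay inside the crypt range, and its Ctrl ratio was 0.76. The Ctrl ratio was also high in other members with short transcripts, at 11.6 for Ccl5 and 13.1 for Nkg7. It was lower in longer ones, at 3.77 for Cd8a and 3.20 for Itgae. In Gli1-PtgscKO the ratio was 6.94 for Ccl5, 7.67 for Nkg7, 7.12 for Cd8a, 5.77 for Itgae and 2.63 for Ptprc. The part of transcript length in these ratios was not tested.

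Per kilobase of the longest transcript, the order of levels in Ctrl villi was led by the secreted products. Gzma had 494 CPM per kilobase and Ccl5, a chemokine that draws T cells, 317. Gzmb followed with 70.5, Cd7 with 66.0 and Nkg7, a membrane protein of cytotoxic granules, with 33.6. The other genes had lower levels per kilobase, with 16.0 for Cd8a, 15.4 for Cd3g, 10.9 for Itgae, 5.42 for Cd3e and 2.07 for Ptprc. In the mean of the Gli1-PtgscKO villi Gzma had 341 CPM per kilobase, Ccl5 201, Gzmb 86.1 and Ptprc 9.27, and Ptprc stood above Cd3e there, with 7.29. With a single Ctrl villus library the spread of this order in Ctrl is unknown. As a share of the reads of the 10 members, Gzma took 46.6% in Ctrl villi, 37.0% and 36.6% in Gli1-PtgscKO villi and 26.8% to 43.7% in crypts. Gzma, Ccl5, Gzmb, Cd7 and Nkg7 also have the shortest transcripts of the members, at 668 to 1436 bases. The part of transcript length in this order and in these shares was not tested.

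**Figure D1:**
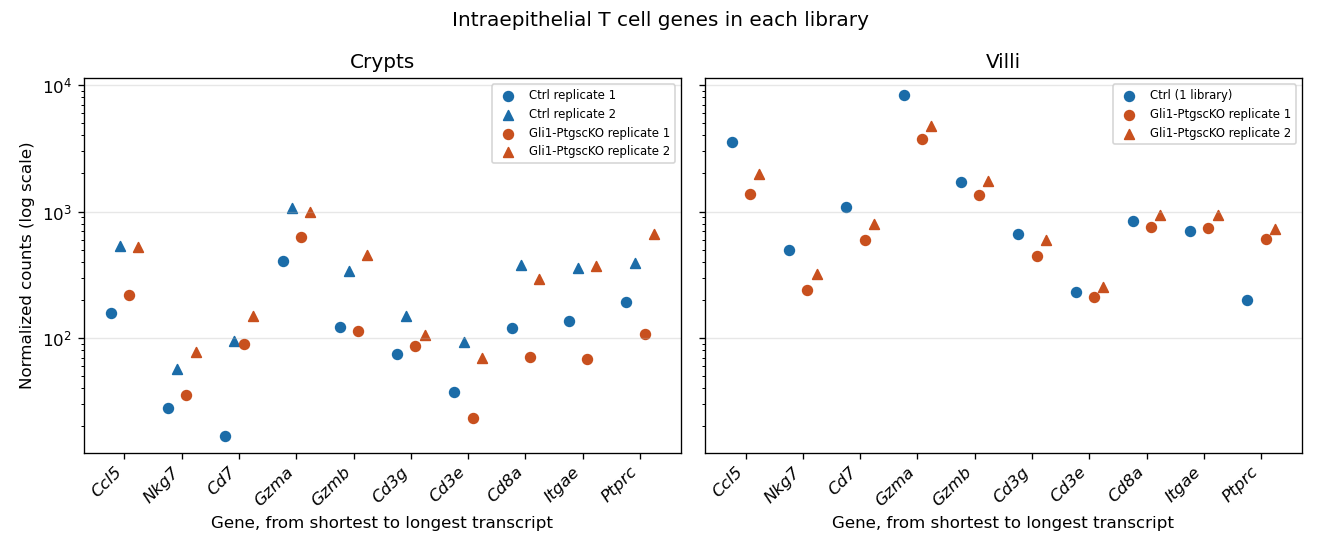
Normalized counts (log scale) of the 10 members in each of the 4 crypt libraries (left) and 3 distinct villus libraries (right), ordered by transcript length, with 1 point per library. In crypts both libraries numbered 2 lie above both numbered 1 for all 10 genes, while the genotypes overlap; in villi the short genes at the left, such as Ccl5, are lower and Ptprc at the right is higher in the Gli1-PtgscKO libraries.

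Loss of COX in mesenchymal cells was compared first in crypts, where no member passed the test between genotypes. The genotypes were set against each other by limma-trend, applied to log2(normalized count + 1), and each fold change is Gli1-PtgscKO relative to Ctrl on this scale. A gene was called at an unadjusted p under 0.01 with an absolute log2 fold change over 1, the threshold of the study, and at a Benjamini-Hochberg adjusted p under 0.05. Of the 10 members, 0 were called higher, against 0.173% of all crypt genes, and 0 lower, against 0.00866%. At the adjusted threshold 0 members were called in either direction by limma-trend, against 0% of all genes higher and 0% lower, and no member had an unadjusted p under 0.05. Across all genes 73 had an unadjusted p under 0.05. Neither DESeq2, which called 11 of all genes at the adjusted threshold, nor edgeR on the recovered reads called a member.

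The CD3 chain gene Cd3e had 37.5 and 93.6 normalized counts in Ctrl crypts and 23.1 and 69.3 in Gli1-PtgscKO crypts, and its partner chain gene Cd3g had 74.0 and 149 in Ctrl and 87.1 and 105 in Gli1-PtgscKO. Cd8a had 119 and 381 in Ctrl and 71.3 and 291 in Gli1-PtgscKO, with the lowest log2 fold change of the members, -0.56 ± 0.79 (SE). For each of these 3 genes the groups overlapped. Cd3e and Cd8a had a low and a high library in each genotype, whereas the 2 Gli1-PtgscKO values of Cd3g lay close together.
Gzma had 403 and 1058 normalized counts in Ctrl crypts and 634 and 990.1 in Gli1-PtgscKO crypts. For Gzmb, the second granzyme, the values were 122 and 336 in Ctrl and 114 and 449 in Gli1-PtgscKO. Nkg7 had 28.1 and 56.7 in Ctrl and 35.7 and 77.1 in Gli1-PtgscKO. All 3 killing genes overlapped between genotypes, and their log2 fold changes were 0.28 for Gzma, 0.16 for Gzmb and 0.38 for Nkg7, with standard errors of 0.48 to 0.74.
Ccl5 had 158 and 529 normalized counts in Ctrl crypts and 218 and 525 in Gli1-PtgscKO crypts. Itgae, the CD103 chain, had 136 and 356 in Ctrl and 68.2 and 374 in Gli1-PtgscKO, and Ptprc had 194 and 391 in Ctrl and 108 and 660.4 in Gli1-PtgscKO. Again the groups overlapped, and for Itgae and Ptprc the Gli1-PtgscKO libraries enclosed the Ctrl libraries.
Cd7 had the highest log2 fold change, 1.48 ± 0.85 (SE), and an adjusted p of 1.00 by limma-trend. Its values were 16.9 and 95.4 in Ctrl crypts and 89.2 and 149 in Gli1-PtgscKO crypts. The lowest library, Ctrl replicate 1, held 18 reads, with a 95% Poisson interval of 10.7 to 28.4 that covers counting error only. Without it the log2 fold change was 0.27. Without Ctrl replicate 2 it was 2.70 and passed the study's threshold, with an adjusted p of 1.00 by limma-trend. Over the 10 members the median log2 fold change was 0.06, with 5 positive and 5 negative values, and the median over all genes was -0.01. Against the Ctrl mean, the members had a median of -0.61 in Gli1-PtgscKO replicate 1 and of 0.81 in replicate 2, and no member was called with either of these libraries left out. None of the 10 lay higher in both Gli1-PtgscKO libraries than in both Ctrl libraries, against 9.73% of all crypt genes, and none lower, against 11.3%.

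In crypts the members split by library number within both genotypes. For all 10, both libraries numbered 2 lay above both numbered 1, against 26.4% of all crypt genes. Replicate 2 exceeded replicate 1 by a median log2 difference of 1.39 in Ctrl, from 0.99 for Nkg7 to 2.43 for Cd7. In Gli1-PtgscKO the median was 1.40, from 0.27 for Cd3g to 2.60 for Ptprc. The 95% Poisson intervals of replicates 1 and 2 did not overlap for 10 members in Ctrl and 9 in Gli1-PtgscKO, the exception being Cd3g. These intervals cover counting error only. The count was not made over all crypt genes, so it does not set the members apart from other genes. Same-numbered libraries are not described as sharing a litter or a day, so the number is a name here.

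Other gene lists also differed between these libraries. The 10 enterocyte genes summed to 113113 and 164239 normalized counts in Ctrl crypts 1 and 2 and to 126235 and 140943 in Gli1-PtgscKO crypts 1 and 2, so they too were higher in both libraries numbered 2, by less than the members, which summed to 1288 and 3445 in Ctrl and 1449 and 3690 in Gli1-PtgscKO. Of 13 pan-leukocyte genes, which include the cytoskeletal regulator Coro1a, 12 were listed in crypts and summed to 2282 and 3332 in Ctrl and 2281 and 3631 in Gli1-PtgscKO. The 7 listed of 12 B and plasma cell genes had another order, with 3948 and 3323 in Ctrl and 2073 and 2932 in Gli1-PtgscKO. The 10 listed of 16 myeloid and mast cell genes had 2799 and 2384 in Ctrl and 2910 and 3957 in Gli1-PtgscKO, and the 8 listed of 10 mesenchymal genes 15972 and 8774 in Ctrl and 10088 and 14068 in Gli1-PtgscKO. The part of villus epithelium, or of any other cell type, in the library difference of the members was not tested. No list had a gene called between genotypes in crypts.

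**Figure D2:**
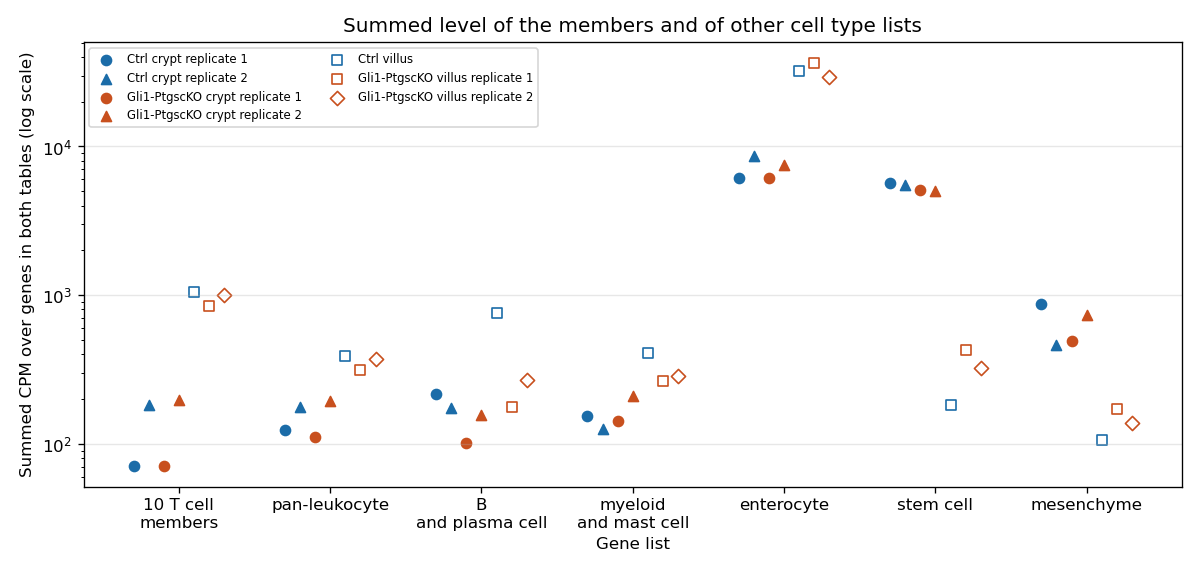
Summed CPM (log scale) of the 10 members and of 6 marker lists in each library, over the genes listed in both tables, with filled symbols for crypts and open symbols for villi. The members, at 70.3 to 196 CPM in crypts and 840 to 1056 in villi, separate the crypt libraries by replicate number in both genotypes, while the mesenchymal sum has another order.

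In villi, Ptprc was higher and Gzma, Ccl5 and Nkg7 were lower in Gli1-PtgscKO mice by limma-trend, with 1 Ctrl library that is assumed to vary like the 2 Gli1-PtgscKO libraries. At the study's threshold 1 member, Ptprc, was called higher, against 9.82% of all villus genes, and 1, Ccl5, was called lower, against 6.69%. At an adjusted p under 0.05, 1 member was called higher and 3 lower, against 17.4% of all genes in either direction. Both Gli1-PtgscKO libraries lay above the Ctrl library for 2 members, against 43.7% of all villus genes, and below it for 5, against 44.2%. These shares show how widely the villus table differs between these libraries. With 1 Ctrl library, no count here rests on replicated Ctrl mice. Scaled by library size alone, the median of all villus genes was 0.42 and that of the members 0.18, and the study's threshold called 2828 genes higher and 159 lower in place of 1247 and 850, with Ptprc still called and Ccl5 no longer called, at -0.67.

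Ptprc had 200.4 normalized counts in Ctrl villi and 608 and 722 in Gli1-PtgscKO villi, a log2 fold change of 1.72 ± 0.18 (SE) and an adjusted p of 0.00736 by limma-trend. Both Gli1-PtgscKO libraries lay well above the single Ctrl value. Itgae, the other member above Ctrl in both, had 704 in Ctrl and 742 and 936 in Gli1-PtgscKO, a log2 fold change of 0.24 that did not pass the test, with an adjusted p of 0.359 by limma-trend. Scaled by library size alone it was 0.67, with an adjusted p of 0.0124.
Ccl5 had 3563 normalized counts in Ctrl villi and 1388 and 1974 in Gli1-PtgscKO villi, a log2 fold change of -1.11 ± 0.23 (SE) and an adjusted p of 0.0174 by limma-trend. For Gzma, 8289 in Ctrl stood against 3733 and 4767, giving -0.97 ± 0.20 (SE) on the log2 scale and an adjusted p of 0.0161. Nkg7 had 498 against 239 and 323, a log2 fold change of -0.84 ± 0.23 (SE) and an adjusted p of 0.0351. The Nkg7 call was lost with DESeq2, at an adjusted p of 0.0695, and with scaling by library size alone, at -0.41 and an adjusted p of 0.169. In all 3 genes both Gli1-PtgscKO libraries lay below Ctrl. Cd7 lay below Ctrl as well, with 1091 against 594 and 802, but its log2 fold change of -0.66 had an adjusted p of 0.0594.
Of the remaining receptor and granzyme genes, Cd3e, Cd8a and Gzmb lay near the Ctrl value. Cd3e had 233 normalized counts in Ctrl villi and 212 and 253 in Gli1-PtgscKO villi, Cd8a had 843 against 758 and 931, and Gzmb had 1705 against 1359 and 1737. For these 3 genes the Ctrl value lay between the 2 Gli1-PtgscKO values, and the log2 fold changes were -0.01 for Cd3e, -0.01 for Cd8a and -0.15 for Gzmb, with standard errors of 0.18 to 0.20. Cd3g had 659 against 446 and 596, below Ctrl in both libraries, with a log2 fold change of -0.35 and an adjusted p of 0.243 by limma-trend. The sign of Cd3e, Cd3g, Cd8a and Gzmb turned positive with scaling by library size alone, and none of the 4 was called.

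The order of the villus differences followed transcript length. From shortest to longest transcript, Ccl5 has 668 bases, Nkg7 881, Cd7 982, Gzma 996, Gzmb 1436, Cd3g 2539, Cd3e 2550, Cd8a 3128, Itgae 3845 and Ptprc 5740. Across these 10 genes the Spearman correlation of length with the mean log2 difference of the Gli1-PtgscKO libraries from Ctrl was 0.952, and it was 0.939 and 0.952 in the 2 libraries taken singly. Across 12698 villus genes it was 0.54. These are descriptions across genes of the same libraries, which share the Ctrl library and are not independent replicates. The 4 shortest members had a median log2 difference of -0.91, and the 763 genes of up to 1000 bases had one of -0.86. Genes over 5000 bases, 2708 in all, had a median of 0.66.

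After a curve of log2 value against transcript length was subtracted from each library, Ptprc was the only member called at an adjusted p under 0.05. Its log2 fold change was then 1.23, with an adjusted p of 0.0253 by limma-trend. In that fit 1 member was called higher, against 8.19% of all villus genes, and 0 lower, against 9%. No other member had an unadjusted p under 0.05. Gzma moved from -0.97 to -0.27, Ccl5 from -1.11 to -0.12, Nkg7 from -0.84 to -0.09 and Cd7 from -0.66 to 0.05. Over the 10 members the median moved from -0.25 to 0.04, and over all genes it was -0.01 before and -0.02 after. Ptprc has 13 annotated transcripts, and length here is that of the longest one.

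**Figure D3:**
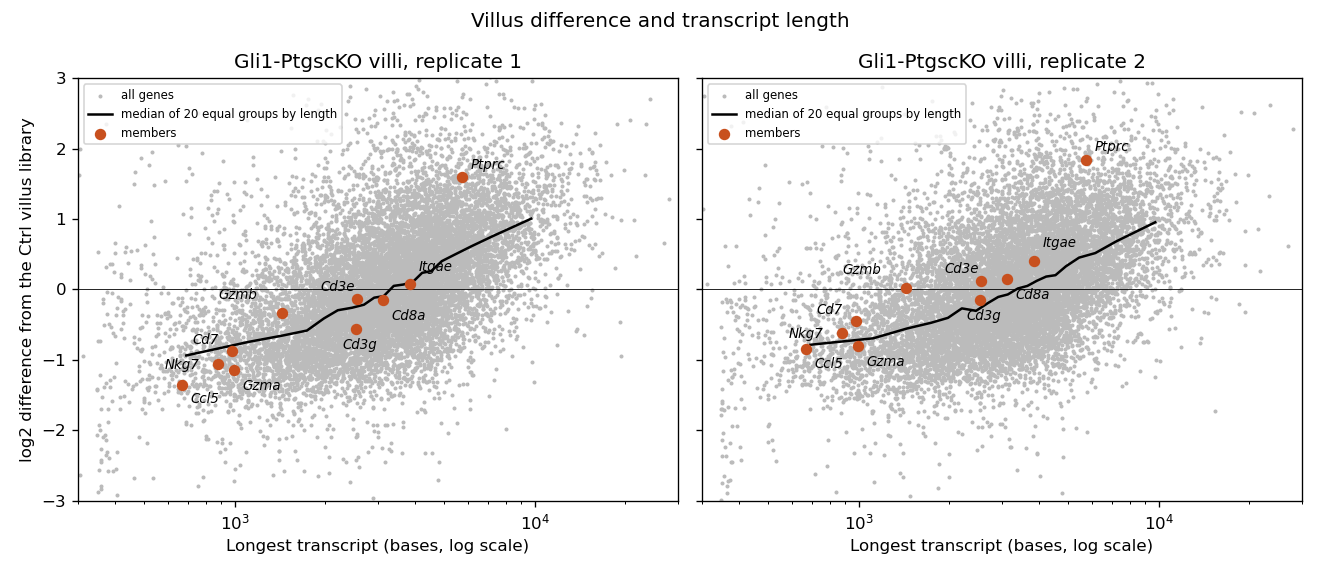
The log2 difference of each Gli1-PtgscKO villus library from the Ctrl villus library, against the length of the longest transcript in bases (log scale), with all genes in grey, their median in 20 groups of equal size as a line and the 10 members in orange. The members lie along the rise of the line from short to long transcripts, Ptprc lies above it, and genes beyond 3 log2 units are not drawn.

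The crypt libraries had a length pattern too. In Gli1-PtgscKO crypt replicate 1 the log2 difference from the Ctrl mean had a Spearman correlation with length of -0.657 over 11552 genes, and in replicate 2 one of 0.311. Among the members it was -0.782 in replicate 1 and -0.212 in replicate 2. With the length curves subtracted, the crypt log2 fold changes of Gzma and Gzmb were -0.07 each, that of Ccl5 -0.25 and that of Cd7 1.13, none of them called. The median over the members was then -0.14.

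**Figure D4:**
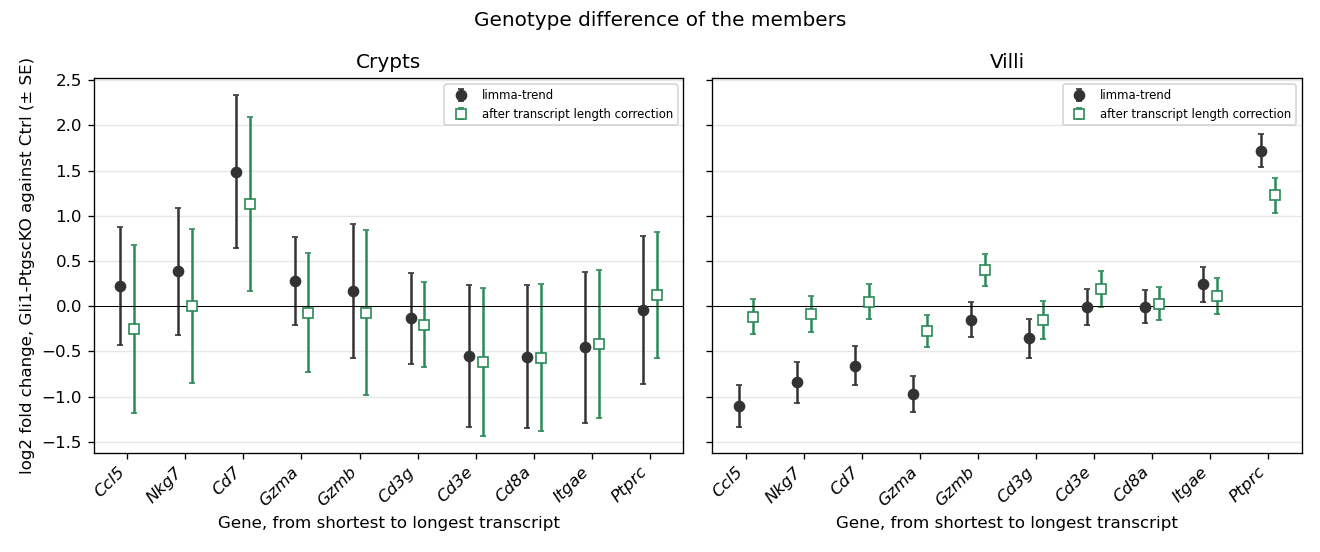
The log2 fold change of each member, Gli1-PtgscKO against Ctrl, with its standard error, in crypts (left) and villi (right), before (black circles) and after (green squares) the correction for transcript length. In crypts all estimates lie within 2 standard errors of 0, and in villi the low values of Ccl5, Nkg7, Cd7 and Gzma move to between -0.27 and 0.05 with the correction, while Ptprc stays at 1.23.

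Most other T cell genes of the villi were not called. Of the 18 listed receptor, coreceptor and signalling genes, 2 were called higher and 0 lower at the study's threshold. Among all villus genes 9.82% were called higher and 6.69% lower. The list had a median log2 fold change of -0.30, or -0.03 after the length correction. With that correction 4 were called higher and 0 lower at the adjusted threshold, against 8.19% and 9% of all villus genes. Among the genes called was Tcrg-C4, a gamma chain constant gene, with 68.3 normalized counts in Ctrl and 135 and 147 in Gli1-PtgscKO. Its log2 fold change was 1.03, with an adjusted p of 0.0191 by limma-trend, but Tcrg-C4 shares near-identical sequence with Tcrg-C1 and Tcrg-C2, so its reads are uncertain. Cd4 had the lowest log2 fold change of the list, -1.52, with an adjusted p of 0.102. Cd3d, the third CD3 chain gene, had 374 against 148 and 243, and Cd247, the zeta chain gene, 54.4 against 51.2 and 64.7. Neither was called.
Of 19 further cytotoxic and NK receptor genes, 12 were listed in villi. The study's threshold called 9.82% of all villus genes higher and 6.69% lower. Runx3, the transcription factor of CD8 T cells named above, was the only gene called at the study's threshold, with 27.8 normalized counts in Ctrl and 65.0 and 86.9 in Gli1-PtgscKO, a log2 fold change of 1.40 and an adjusted p of 0.0221 by limma-trend, or 0.0549 after the length correction. Cst7, an inhibitor of cysteine proteases in cytotoxic cells, had the lowest log2 fold change, -0.96, with 140 against 65.8 and 78.2 and an adjusted p of 0.0327. After the length correction Cst7 was at -0.25 with an adjusted p of 0.477. The chemokine gene Xcl1, at 1.52, was then the 1 gene called at the adjusted threshold. Among all villus genes 8.19% were called higher and 9% lower in that fit. Before the correction Xcl1 was at 0.33, with an adjusted p of 0.499 by limma-trend. Its normalized counts were low, with 30.1 in Ctrl and 34.4 and 42.5 in Gli1-PtgscKO. The median over the 12 genes was -0.24, or 0.16 after the correction. In crypts the list had 1 gene listed, Cd244a, at 140 and 105 in Ctrl and 76.6 and 154 in Gli1-PtgscKO.

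Partners bring T cells to the epithelium and hold them there. Of 14 such genes 13 were listed in villi. At the study's threshold 0 were called by limma-trend, against 9.82% of all villus genes higher and 6.69% lower. At an adjusted p under 0.05, against 17.4% of all villus genes in each direction, 1 gene was called. That gene was Ccr9, the receptor for the gut chemokine Ccl25, with 74.1 normalized counts in Ctrl and 130.0 and 139 in Gli1-PtgscKO, a log2 fold change of 0.85 and an adjusted p of 0.0324. After the length correction it was 0.45 with an adjusted p of 0.210, and 0 genes of the list were called by limma-trend. Ccl25 itself had 7775 against 7172 and 6074 and was not called. Itgb7, the integrin chain that pairs with the Itgae product, had 481 against 266 and 346, a log2 fold change of -0.66 with an adjusted p of 0.0577. Cdh1, the E-cadherin bound by that integrin, had 3834 against 5292 and 4640. Within the list the log2 fold change ran from -1.35 for the chemokine gene Cxcl9 to 1.45 for the chemokine gene Ccl20, neither called. In crypts 5 of these genes were listed, from Cdh1 at -0.18 to Itgb7 at 0.56.

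A list of epithelial genes, drawn up for those that maintain or engage intraepithelial T cells, was listed in full in villi, 15 of 15. It holds Rae1, the symbol of an mRNA export factor, which is no such gene and was not called. The study's threshold called 2 higher and 0 lower, against 9.82% and 6.69% of all villus genes. Ahr, the aryl hydrocarbon receptor, had 77.6 normalized counts in Ctrl villi and 185 and 191 in Gli1-PtgscKO villi, a log2 fold change of 1.27 with an adjusted p of 0.00943 by limma-trend. Il15ra, which presents the T cell survival cytokine IL-15, had 62.6 against 128 and 127, a log2 fold change of 1.02 with an adjusted p of 0.0205. Both Gli1-PtgscKO libraries lay above Ctrl for each. At the adjusted threshold Btnl4 (log2 fold change 0.60) and Btnl6 (0.67), butyrophilin-like genes of the family that selects gamma-delta T cells, were also higher, and Il18 (-0.65) and H2-T23 (-0.59) were lower. At that threshold 17.4% of all villus genes were called in each direction. After the length correction 3 of the 15 were called at the adjusted threshold, Il15ra, Btnl4 and Btnl6, all higher, against 8.19% of all villus genes. Ahr was then at 0.80 with an adjusted p of 0.0531, Il18 at 0.10 and H2-T23 at -0.41, and none of these 3 was called. Ulbp1 had the highest log2 fold change, 1.46, at 4.63 against 16.8 and 12.6, and did not pass. In crypts 14 of the 15 were listed and 0 called by limma-trend, from -0.68 for Il15ra to 0.31 for H2-T23.

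Some pan-leukocyte genes, which T cells also express, and some markers of other leukocytes were called lower in the Gli1-PtgscKO villi. Of 13 pan-leukocyte genes all were listed. At the study's threshold 3 were called lower and 0 higher, against 6.69% and 9.82% of all villus genes. The 13 genes summed to 6609 normalized counts in Ctrl and 3814 and 4939 in Gli1-PtgscKO. In CPM the sum over the 12 of them listed in both tables was 388 in Ctrl and 312 and 373 in Gli1-PtgscKO. The called genes were Coro1a (-1.21), Laptm5 (-1.09) and Cd52 (-1.17). After the length correction Laptm5 alone was called, at -0.91, Coro1a was at -0.77 and Cd52 at 0.03, and the median of the list moved from -0.41 to -0.04. Vav1 had the highest log2 fold change of the list, 0.41. The 9 listed of 12 B and plasma cell genes summed to 12762 in Ctrl and 2132 and 3508 in Gli1-PtgscKO, and the 15 listed of 16 myeloid and mast cell genes to 8427 in Ctrl and 3652 and 4539 in Gli1-PtgscKO. The members summed to 17787 against 10079 and 13041. Enterocyte genes summed to 544399 against 439902 and 379085, with 0 of 10 called. In CPM the enterocyte sum was 32330 in Ctrl and 36662 and 29235 in Gli1-PtgscKO, so the Ctrl value lay between them. The members summed to 1056 CPM against 840 and 1006. The 7 B and plasma cell genes listed in both tables summed to 754 CPM against 176 and 267. For the 10 such myeloid and mast cell genes the sum was 405 CPM against 264 and 284. Whether the make-up of the preparations played a part in the member values was not tested.

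Genes other than the members with the pattern most like the members were found by the Pearson correlation over the 7 libraries of log2(CPM + 1) with the mean of the 10 members, each scaled to its own spread. The 5 highest were Ifit1bl2 at 0.997, Tcrg-C1 at 0.996, Arhgap9 at 0.994, Proz at 0.992 and Asb2 at 0.992. Villi and crypts form separate clusters in this measure and the libraries share their tissue, so the coefficient is a description, and 187 of 11217 genes exceeded 0.95. Of these genes, Ifit1bl2, an interferon-induced gene of a multigene family, had 8.24 and 22.2 CPM in Ctrl crypts, 9.23 and 23.5 in Gli1-PtgscKO crypts, 86.1 in Ctrl villi and 97.8 and 140 in Gli1-PtgscKO villi. Tcrg-C1, a T cell receptor gamma constant gene, had 2.15 and 5.50 CPM in Ctrl crypts, 1.95 and 5.47 in Gli1-PtgscKO crypts, 17.0 in Ctrl villi and 19.4 and 29.2 in Gli1-PtgscKO villi. Both were higher in the crypt libraries numbered 2 than in those numbered 1. They were chosen by their correlation over these same libraries, so that split is no separate result. Among the members themselves the coefficient ran from 0.957 for Cd7 to 0.999 for Gzmb, apart from Ptprc at 0.72. Each member is part of the mean it was compared with, which raises its coefficient.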

How the data were processed

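RNA of small intestinal crypts and villi was sequenced by the authors and, per the study's methods, aligned to mm10 with STAR and compared with DESeq2. RNA and library kits differ between the sample labels and the methods. The signal in each deposited table is, per library, a gene's count over a size factor, beside the authors' own fold changes and p-values, which were not used. Dividing by the smallest step gave whole reads for 100% of the values within 0.001. Of the 8 labelled libraries, the 2 identical Ctrl villus libraries were counted once.

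limma-trend (limma 3.58.1, R 4.3.3) was run on log2(value + 1) where the mean reached 1, over all genes of each table, with Benjamini-Hochberg adjustment. Poisson intervals of recovered reads cover counting error only. Longest transcripts came from GENCODE M21, and the length correction took a lowess curve (span 0.3) out of every library. Alternatives were DESeq2 1.42.0, edgeR 4.0.16, library size scaling, other filters, a pseudocount of 0.1, a replicate block and leaving out each library. Fits were tested on simulated data.

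The members and the gene lists were chosen with earlier results of these data known. All members were named, with the lowest, the highest and each called gene of the T cell, epithelial and pan-leukocyte lists, a fixed set of receptor genes and the 5 genes most like the members. Cd244a, Btnl4, Btnl6, Il18, H2-T23, Itgb7, Cdh1, Ccl25, Xcl1, Rae1 and Csf1r were added where a result turned on them. Some genes that this rule would name are not reported here.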

Additional observations from a re-analysis of the deposited data

Results flagged for a closer look

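No member met a rule for a closer look. In 8 genes of the other lists both Gli1-PtgscKO libraries lay on one side of the single Ctrl library in villi. In crypts they lay on the opposite side of both Ctrl libraries. This was not counted over all genes. Of all villus genes, 43.7% lay above Ctrl in both Gli1-PtgscKO libraries and 44.2% below, and of all crypt genes 9.73% and 11.3%. The 8 genes are therefore a description only, and the difference between the tissues was not tested in any of them. Il15ra had a log2 fold change of 1.02 in villi and -0.68 in crypts. Cdh1 had 0.37 in villi and -0.18 in crypts. The proteoglycan gene Srgn had -0.41 in villi and 0.63 in crypts. For the phosphatase gene Ptpn6 the values were -0.27 in villi and 0.15 in crypts. Among myeloid genes, the lysozyme gene Lyz2 had -1.04 in villi and 1.20 in crypts. Itgax, an integrin of dendritic cells, had -0.42 in villi and 0.85 in crypts. The complement gene C1qb had -1.75 in villi and 1.74 in crypts. Fabp1, a fatty acid binding protein of enterocytes, had -0.49 in villi and 0.42 in crypts.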

How the results depend on the processing

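In crypts no member was called under any alternative except Cd7 without Ctrl replicate 2, so members called higher ran from 0 to 1 over the libraries left out. Genes called higher at the study's threshold, 20, became 60 with DESeq2, and the genes called lower, 1, became 5 with DESeq2, 3 with edgeR, and 4 with library size alone or with the length correction, while DESeq2 called 11 at an adjusted p under 0.05. Across genes, deviations from the group mean correlated at 0.247 between same-numbered crypt libraries. The replicate block gave 63 higher, 15 lower and 34 at the adjusted threshold, and it called no member. Ptprc was 0.40 with DESeq2, 0.41 with edgeR and 0.12 with the length correction, which also gave -0.071 for Gzma, -0.071 for Gzmb, -0.25 for Ccl5 and -0.0021 for Nkg7. Leaving out each library gave 15 to 593 genes higher, 3 to 288 lower and 0 to 1987 at the adjusted threshold, the highest of each without Gli1-PtgscKO crypt replicate 2. The log2 fold changes then ran from -1.34 to 1.26 for Ptprc, -1.33 to 0.22 for Cd3e, -0.64 to 0.37 for Cd3g, -1.57 to 0.45 for Cd8a, -0.42 to 0.97 for Gzma, -0.82 to 1.15 for Gzmb, -0.64 to 1.09 for Ccl5, -1.67 to 0.76 for Itgae, 0.27 to 2.70 for Cd7 and -0.16 to 0.93 for Nkg7.

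In villi no paired analysis was possible because the 2 Ctrl columns are identical. Scaling by library size alone put the all-gene median at 0.42 and gave 2828 genes higher and 159 lower, 0 members lower and a member median of 0.18, with Cd3e at 0.42, Cd3g at 0.078, Cd8a at 0.43 and Gzmb at 0.28. DESeq2 called 2631 genes at the adjusted threshold and gave 0.00060 for Cd8a, and edgeR gave 0.014 for Cd3e and 0.020 for Cd8a. With the length correction 703 genes were higher, 383 lower and 2183 past the adjusted threshold, 0 members were lower and 1 passed the adjusted threshold, and the member median was 0.036, with Cd3e at 0.19, Cd8a at 0.026, Gzmb at 0.40 and Cd7 at 0.047. Leaving out a Gli1-PtgscKO library left no test, and the values ran from -0.14 to 0.12 for Cd3e, -0.15 to 0.14 for Cd8a and -0.33 to 0.026 for Gzmb. The cause of these shifts was not tested, and depth limits Cd7, Nkg7 and Cd3e most in crypts.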

Other observations

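Among the other leukocytes of the villi, B and plasma cell genes were lower in Gli1-PtgscKO mice. The study's threshold called 6.69% of all villus genes lower and 9.82% higher. Of the 9 listed genes, 5 were called lower at that threshold by limma-trend and 0 higher. Their median log2 fold change was -1.43, or -0.88 after the length correction. With that correction 3 of them were called lower at the adjusted threshold, against 9% of all villus genes. Igkc, the kappa light chain constant gene, had 5063 normalized counts in Ctrl and 537 and 935 in Gli1-PtgscKO, and Igha, the constant gene of IgA, had 5541 against 1028 and 1685. Cd79b, Jchain and Ighm were the other genes called. Of 15 listed myeloid and mast cell genes, 7 were called lower and 1, Kit, higher, with a median of -1.08, or -0.59 after the length correction, which left 1 gene called lower at the adjusted threshold, Csf1r, and 0 higher. C1qa had the lowest log2 fold change, -1.89, and the gene Csf1r, the receptor of a macrophage growth factor, had 535 against 205 and 254. In crypts no gene of either list was called by limma-trend, and the lists' medians were -0.31 for B and plasma cells and 0.61 for myeloid and mast cells. These villus values rest on the same single Ctrl library.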
